A study of Mus musculus with 10 samples.

Results

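The apolipoprotein genes of the mouse were examined here through the histone peaks of 4 windows of the mm9 genome build in liver. The windows were chr9:46020000-46100000 for Apoa1, Apoc3, Apoa4 and Apoa5, chr7:20240000-20310000 for Apoe, Apoc1 and Apoc2, chr12:7960000-8040000 for Apob, and chr1:173140000-173170000 for Apoa2. Every peak that overlapped a window was a member, which gave 381 of the 344928 peaks in 9 lists. The choice used gene positions and no measured value. Chromatin was immunoprecipitated from full liver sections of normal mice and sequenced, and 1 peak list was deposited per library. FiTAc-seq was run on formalin-fixed, paraffin-embedded (FFPE) liver with an H3K27Ac antibody, with the tissue homogenized at 50 °C and sonicated for 40 min or 5 min, at 65 °C for 40 min or 5 min, or at 80 °C for 40 min. FiT-seq, another protocol for fixed tissue, was run on FFPE liver for H3K4me2 and for H3K27Ac. The comparison tissue was fresh frozen liver with the same H3K27Ac antibody, fixed briefly after freezing. Only 65 °C with 5 min had 2 libraries, and every other condition had 1. The labels give no strain, age, sex or number of animals, and they call the fresh frozen liver matched without saying that it came from the same animal.

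Apolipoproteins are the protein part of the particles that carry cholesterol and triglyceride in blood, and the liver is a main source of most of them. They coat the particles, switch lipases on or off and serve as ligands for receptors that clear the particles. Apob is the large structural protein of very-low-density and low-density lipoproteins, Apoa1 is the main protein of high-density lipoprotein, and Apoe is a ligand of the low-density lipoprotein receptor family. H3K27Ac, acetylation of a lysine in the tail of histone H3, marks active promoters and enhancers, and H3K4me2, methylation of another lysine, marks promoters and enhancers more broadly. Genes with very high transcription in a cell type often lie in broad stretches of H3K27Ac.

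The promoter of the first named gene of each window is shown to give the sequence around which these marks were measured. The sequences are those of RefSeq on GRCm38.p6, from 250 bases before to 50 bases after the gene start, on the gene's strand. Their coordinates belong to GRCm38 and cannot be set against the mm9 windows, because no mm9 annotation was used here. Capitals mark matches, on either strand, to the TATA box TATAAA, to CAAAGNNCA, a pattern found within many sites of the hepatocyte factor HNF4A, or to the GC box GGGCGG.
Apoa1, chr9:46228380-46228679, plus strand: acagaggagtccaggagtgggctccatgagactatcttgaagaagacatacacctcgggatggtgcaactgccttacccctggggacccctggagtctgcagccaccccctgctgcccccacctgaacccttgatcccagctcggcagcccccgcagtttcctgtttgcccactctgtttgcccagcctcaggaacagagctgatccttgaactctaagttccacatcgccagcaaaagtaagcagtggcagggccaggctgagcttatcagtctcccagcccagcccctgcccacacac
Apoe, chr7:19699139-19699438, minus strand: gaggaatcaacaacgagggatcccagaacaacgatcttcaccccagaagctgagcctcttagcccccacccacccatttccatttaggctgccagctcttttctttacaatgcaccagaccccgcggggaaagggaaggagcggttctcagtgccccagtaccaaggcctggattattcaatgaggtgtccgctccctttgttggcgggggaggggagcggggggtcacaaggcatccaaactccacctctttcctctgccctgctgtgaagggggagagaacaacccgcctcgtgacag
Apob, chr12:7977427-7977726, plus strand: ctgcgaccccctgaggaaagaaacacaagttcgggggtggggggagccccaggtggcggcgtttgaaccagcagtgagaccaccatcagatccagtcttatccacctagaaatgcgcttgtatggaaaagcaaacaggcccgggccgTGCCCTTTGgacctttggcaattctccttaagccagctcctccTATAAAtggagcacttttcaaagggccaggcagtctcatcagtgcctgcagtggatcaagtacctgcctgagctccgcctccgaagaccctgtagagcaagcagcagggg
Apoa2, chr1:171224804-171225103, plus strand: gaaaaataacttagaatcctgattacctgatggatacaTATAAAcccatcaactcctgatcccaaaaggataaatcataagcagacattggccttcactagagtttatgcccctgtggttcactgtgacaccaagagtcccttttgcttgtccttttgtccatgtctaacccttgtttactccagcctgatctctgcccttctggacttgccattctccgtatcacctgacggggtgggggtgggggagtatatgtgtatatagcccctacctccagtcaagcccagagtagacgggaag
Of the 9 genes, 7 had a promoter entry, and Apoc3 and Apoc1 are named only. Over the first entry of these 7 genes, TATAAA was found in 3 promoters, CAAAGNNCA in 2 and GGGCGG in 0. Over all 11 entries of these genes, the numbers were 5, 2 and 0. Of all 32851 mouse promoter entries of the same length, 13.6% held TATAAA, 6.36% CAAAGNNCA and 35.7% GGGCGG. The Apob promoter held both TATAAA and a match to CAAAGNNCA, and the Apoa1 and Apoe promoters shown held none of the patterns. A match describes letters only.

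Taken as a whole, the windows held denser H3K27Ac peaks than the chromosomes did in both FFPE and fresh frozen liver, with the Apob window the sparsest. The 5 FiTAc-seq lists at 50 °C and 65 °C had 70 peaks (50 °C, 40 min), 75 (50 °C, 5 min), 75 (65 °C, 40 min) and 50 and 54 (65 °C, 5 min, libraries 1 and 2) in the windows, and the fresh frozen list had 52. The FiTAc-seq list at 80 °C and the FiT-seq H3K27Ac list had 0, and they held only 65 and 115 peaks in all. The FiT-seq H3K4me2 list had 5 of its 11746 peaks there. Per 100 kb of window the counts were 26.9, 28.8, 28.8, 19.2 and 20.8 in the FiTAc-seq lists at 50 °C with 40 min, 50 °C with 5 min, 65 °C with 40 min and 65 °C with 5 min (libraries 1 and 2), and 20 in fresh frozen liver. Over the whole span of the chromosomes, the same lists had between 1.49 and 2.54 peaks per 100 kb. The Apob window alone had 2.5 to 7.5 peaks per 100 kb in the FiTAc-seq lists and 5 in fresh frozen liver. The peaks cannot be given to single genes with the sources used here, so each result belongs to a window. In GRCm38 the Apoa1 cluster is flanked by Sik3 and Pafah1b2 on one side and by Zpr1 and Bud13 on the other, the Apoe cluster by Clptm1 and Gm44805 and by Tomm40 and Nectin2, and Apob by Klhl29 and Ldah. Apoa2 lies between Tomm40l and Nr1i3 on one side and Fcer1g on the other. Nr1i3 is a nuclear receptor of hepatocytes and Fcer1g a receptor chain of myeloid cells, so a mark in that window need not come from one cell type of the section.

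**Figure D1:**
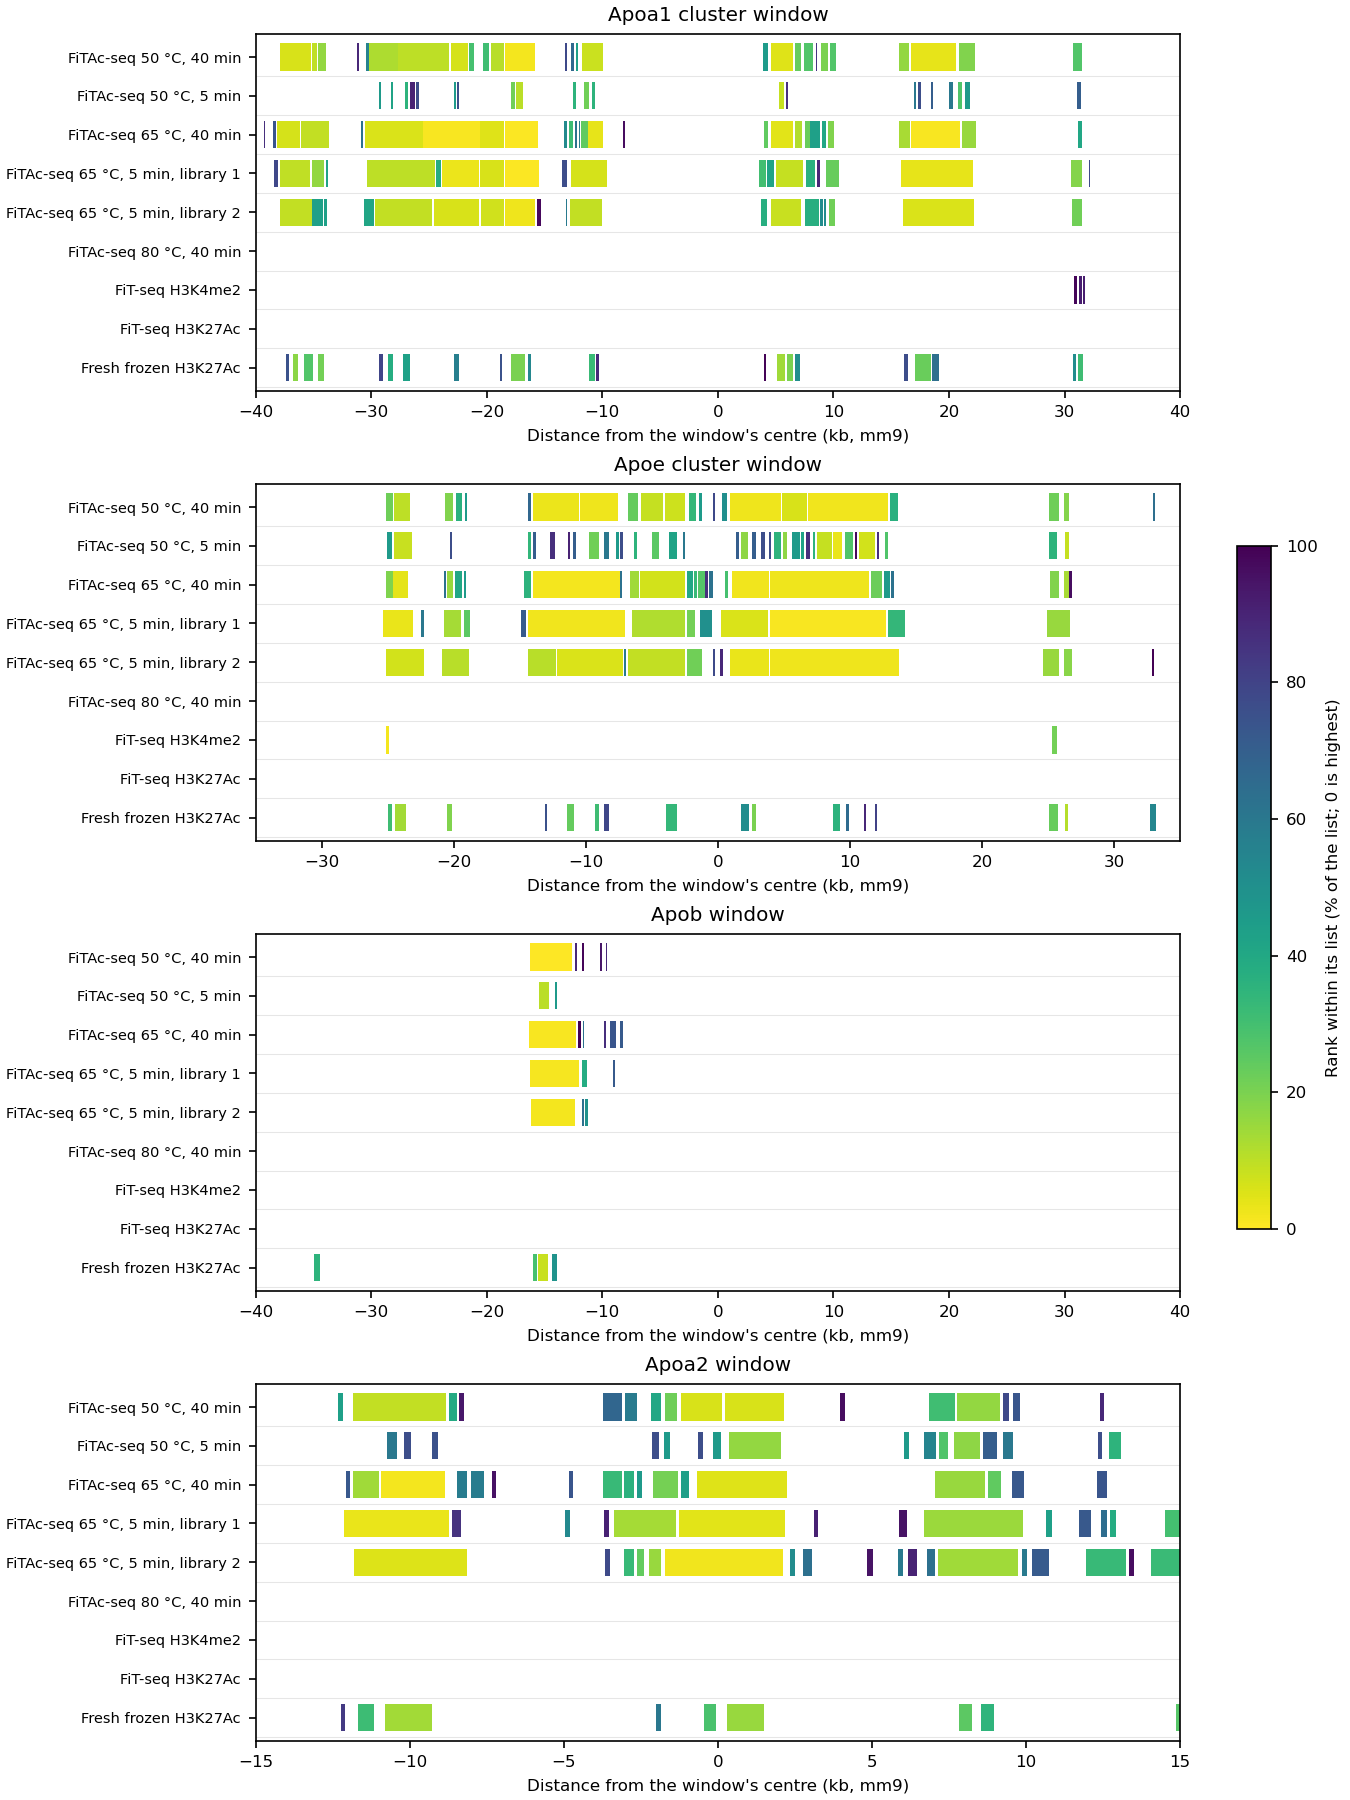
Peaks of the 9 lists in the 4 windows, 1 row per list, plotted by distance from the window's centre in kb on mm9. Colour gives the rank of each peak within its own list in percent of the list, with yellow for the highest. The 5 FiTAc-seq lists at 50 °C and 65 °C and the fresh frozen list carry peaks in all 4 windows, the rows at 80 °C and of FiT-seq H3K27Ac are empty, and FiT-seq H3K4me2 has 5 short peaks.

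The share of window length under a peak shows how much of the windows each peak list covered. Over all 4 windows, peaks covered 29.2% of the length at 50 °C with 40 min and 10.9% at 50 °C with 5 min. They covered 31.3% at 65 °C with 40 min, 33.9% and 33.2% in the libraries at 65 °C with 5 min, and 9.8% in fresh frozen liver. Across the whole chromosomes these lists covered 1.41%, 0.667%, 1.34%, 1.72% and 1.56% in the FiTAc-seq lists in the same order, and 0.795% in fresh frozen liver. Each of these lists was therefore denser in the windows than over its chromosomes. No FiTAc-seq library other than 50 °C with 5 min came near the fresh frozen coverage. FiT-seq H3K4me2 covered 0.484% of the windows and 0.128% of the chromosomes.

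The Apoa1 cluster holds genes of high-density lipoprotein and of triglyceride handling: Apoc3 inhibits lipoprotein lipase, Apoa5 promotes its action, and Apoa4 travels on chylomicrons and high-density lipoprotein. In this window peaks covered 39.4% at 50 °C with 40 min, 7.86% at 50 °C with 5 min, 43.4% at 65 °C with 40 min, 44.3% and 42.1% at 65 °C with 5 min, and 14.2% in fresh frozen liver. The low value at 50 °C with 5 min lay below fresh frozen liver, and the others lay above it. In the Apoe window, with the lipase activator Apoc2 and the small exchangeable protein Apoc1, the shares were 41%, 21.1%, 41.8%, 47.4% and 46.6% in the same FiTAc-seq order and 10.2% in fresh frozen liver. Here every one of these FiTAc-seq lists exceeded fresh frozen liver. The Apob window was the sparsest, with 5.37%, 1.3%, 6.76%, 6.09% and 5.4% in the FiTAc-seq lists and 2.62% in fresh frozen liver. In the Apoa2 window, whose gene encodes another abundant protein of high-density lipoprotein, the shares were 38.3%, 20.8%, 39.8%, 48.5% and 52.2%, against 16.4% in fresh frozen liver. The windows were drawn around genes and not around marks, and the Apob window of 80 kb surrounds a single member.

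**Figure D2:**
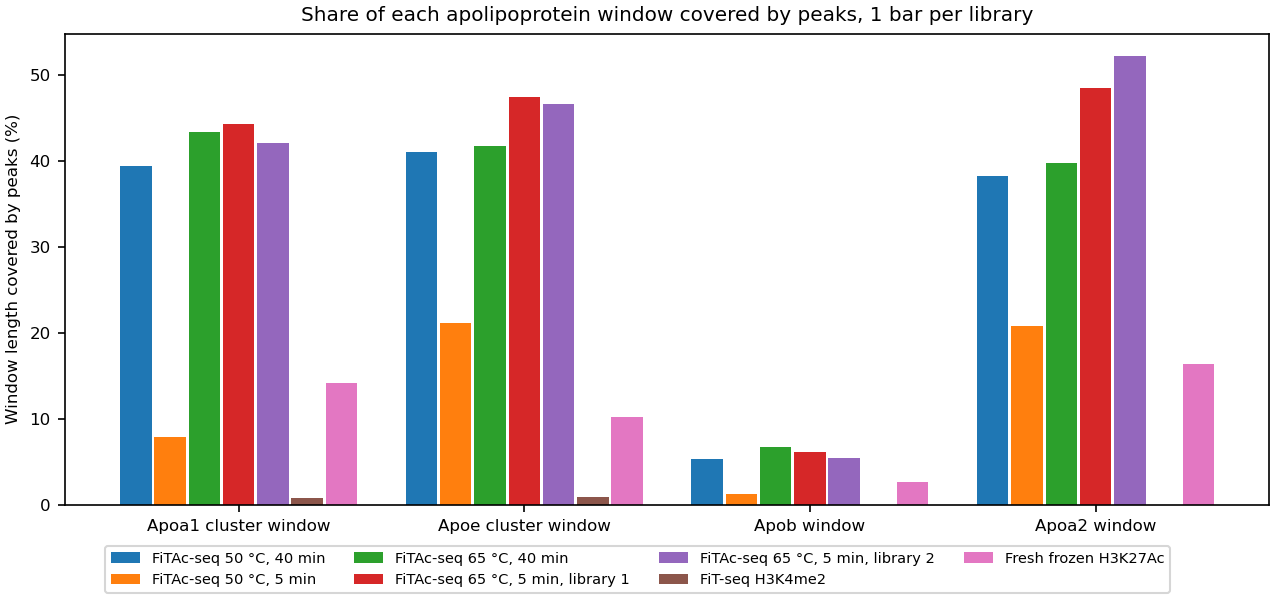
Percent of window length covered by peaks, 1 bar per library, for the 4 windows. Bars at 50 °C with 5 min and for fresh frozen liver are low, from 1.3% to 21.1%, and the other FiTAc-seq bars reach 38.3% to 52.2% in all windows but that of Apob, where they reach 5.37% to 6.76%. The lists at 80 °C and of FiT-seq H3K27Ac have no peak and are not drawn.

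The peaks of all lists were joined at gaps of up to 500 bp into 24 sites, of which 8 lay in the Apoa1 window, 5 in the Apoe window, 3 in the Apob window and 8 in the Apoa2 window. A peak was present in all 6 long H3K27Ac lists, which are the 5 FiTAc-seq lists at 50 °C and 65 °C and the fresh frozen list, at 13 of the 24 sites (54.2%). Over all chromosomes 28.0% of 47720 sites were so shared. A list counted with a peak anywhere in a site, so the peaks of different lists need not overlap. Window sites ran up to 29096 bp, and the 2 shares were not matched for site length. All sites can also include some with an H3K4me2 peak alone. The 13 sites were 5 in the Apoa1 window, 4 in the Apoe window, 1 in the Apob window and 3 in the Apoa2 window. At all 13, both libraries at 65 °C with 5 min covered more bases than the fresh frozen list. The libraries at 50 °C with 40 min, 65 °C with 40 min and 50 °C with 5 min did so at 13, 12 and 5 of them. The same counts were not made over all sites shared by these lists. Over the chromosomes, 65 °C with 5 min covered 1.64% on average and fresh frozen liver 0.795%. The values given for sites are the authors' −log10 q-values, which rank peaks within a list and are not comparable in size between lists, and the lists also differ in length.

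In fresh frozen liver, at 50 °C with 40 min and in library 2 at 65 °C with 5 min, the highest H3K27Ac peak of all windows lay in the Apob window, at the site chr12:7983653-7988775. The site's highest peak ranked 164 of its list at 50 °C with 40 min, 3962 at 50 °C with 5 min, 515 at 65 °C with 40 min, 726 and 1005 at 65 °C with 5 min, and 3963 in fresh frozen liver. The −log10 q-values were 99.7, 12.4, 85.5, 83.1 and 61.6 in the FiTAc-seq lists and 38.8 in fresh frozen liver. It was the only window peak of fresh frozen liver among the 5000 highest of that list. The site's peaks covered 3957, 1038, 4491, 4689 and 4318 bp in the FiTAc-seq lists and 1568 bp in fresh frozen liver. The longer of its 2 stretches under a peak in all 6 lists ran over 799 bp at chr12:7984513-7985311. The remainder of the Apob window held weak peaks at chr12:7989817-7991747 in 3 FiTAc-seq lists and a peak of fresh frozen liver alone, described with the recovered peaks.

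In the Apoa1 window the FiTAc-seq lists other than that at 50 °C with 5 min had their highest peak at chr9:46028750-46044686, a site of 15937 bp. Its highest peak ranked 1148 at 50 °C with 40 min, 3962 at 50 °C with 5 min, 501 at 65 °C with 40 min, 438 and 1364 at 65 °C with 5 min, and 9676 in fresh frozen liver. Its peaks covered 13449, 2593, 14981, 14556 and 14602 bp in the FiTAc-seq lists and 3493 bp in fresh frozen liver. The lists at 50 °C with 40 min and at 65 °C covered most of the site, and the 50 °C 5 min and fresh frozen lists covered separate short pieces of it. A single peak of 6177 and 6146 bp in the libraries at 65 °C with 5 min covered most of the site chr9:46075647-46082366, where fresh frozen liver had 3 peaks over 2359 bp. That site ranked 2547, 10642, 575, 2217 and 3196 in the FiTAc-seq lists and 10978 in fresh frozen liver. At chr9:46063554-46070510, which held the highest fresh frozen peak of the window, the ranks lay closer together, at 3148, 3389, 2862, 5338 and 4829 in the FiTAc-seq lists and 6850 in fresh frozen liver. At chr9:46046500-46050436 the ranks were 5327, 8312, 2439, 3876 and 5188 in the FiTAc-seq lists and 15476 in fresh frozen liver. At chr9:46090561-46092220 they were 17778, 27021, 25851, 11219 and 12306 in the FiTAc-seq lists and 14892 in fresh frozen liver. There only the libraries at 65 °C with 5 min had a smaller rank number than fresh frozen liver. The site chr9:46021464-46026319 was present in 5 of the 6 lists and lacked a peak at 50 °C with 5 min.

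The Apoe window held the longest site, chr7:20260071-20289166, of 29096 bp. It was cut into 14 peaks at 50 °C with 40 min, 31 at 50 °C with 5 min, 16 at 65 °C with 40 min, 8 and 9 at 65 °C with 5 min, and 11 in fresh frozen liver. The bases covered were 24515, 11990, 25145, 27070 and 25737 in the FiTAc-seq lists and 4146 in fresh frozen liver. The 65 °C 5 min libraries therefore had the fewest and longest pieces, up to 8764 and 9744 bp, and fresh frozen liver covered the least. The site's highest peak ranked 1438, 1257, 1245, 495 and 1514 in the FiTAc-seq lists and 9704 in fresh frozen liver. In GRCm38 the genes Apoc2, Apoc4, Apoc1 and Apoe lie in this order between Clptm1 and Tomm40, and which of them the site spans was not determined. At the edges of the window, the order differed at chr7:20299622-20301843, the site of the highest fresh frozen peak there. It ranked 12120, 3389, 8278, 9256 and 8823 in the FiTAc-seq lists and 5318 in fresh frozen liver. Only the list at 50 °C with 5 min gave it a smaller rank number than fresh frozen liver. At chr7:20254148-20256221 the ranks were 12348, 29311, 9787, 8200 and 6071 in the FiTAc-seq lists and 9093 in fresh frozen liver. There only the libraries at 65 °C with 5 min had a smaller rank number than fresh frozen liver.

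The Apoa2 window had 3 sites present in all 6 lists. The first, chr1:173142674-173147811, ranked 6018, 23053, 1245, 2082 and 2884 in the FiTAc-seq lists and 6750 in fresh frozen liver, where it held the highest and widest peak of the window, of 1522 bp. The list at 50 °C with 5 min was far lower at this site than the others. At chr1:173151263-173158252 the ranks were 3977, 6213, 3249, 2590 and 1137 in the FiTAc-seq lists and 7434 in fresh frozen liver. This site contained the longest stretch shared by all 6 lists in any window, 1138 bp at chr1:173155372-173156509. At chr1:173160840-173165830 the ranks were 10481, 6563, 9787, 9057 and 8149 in the FiTAc-seq lists and 12142 in fresh frozen liver.

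**Figure D3:**
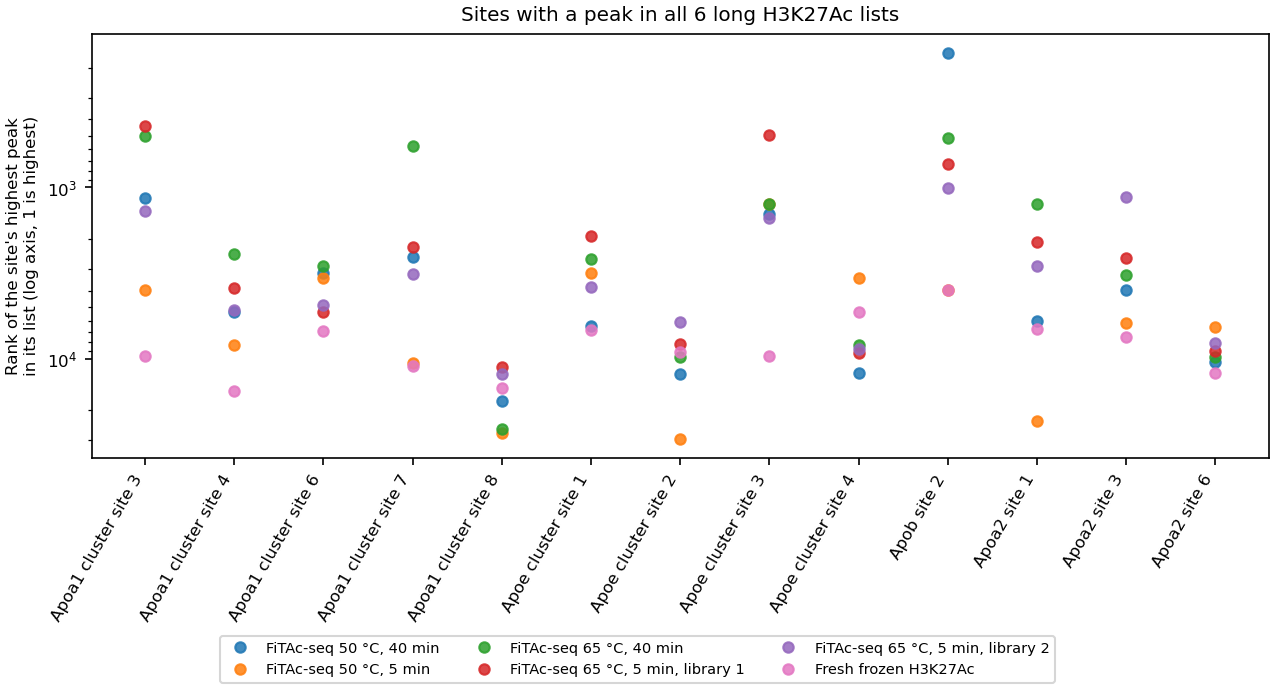
Rank of the highest peak of each of the 13 sites present in all 6 long H3K27Ac lists, on a log axis with rank 1 at the top, 1 point per library. Both libraries at 65 °C with 5 min sit above the fresh frozen point at 12 of the 13 sites, the exception being Apoe cluster site 4. Each of the other FiTAc-seq lists does so at 10 of the 13. At Apob site 2 the fresh frozen point covers that of 50 °C with 5 min. Sites are numbered by position within a window, and the same comparison was not made over all shared sites.

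The share of window peaks among the highest of a list lay above that of the whole list in 4 FiTAc-seq lists, and below it at 50 °C with 5 min and in fresh frozen liver. This share was chosen after the values were seen and is a description. Among the 5000 highest peaks of their list were 13 of 70 window peaks at 50 °C with 40 min (18.6%, against 7.65% of the whole list) and 8 of 75 at 50 °C with 5 min (10.7%, against 13.6%). The numbers were 16 of 75 at 65 °C with 40 min (21.3%, against 7.86%), and 12 of 50 (24%, against 8.32%) and 12 of 54 (22.2%, against 8.89%) at 65 °C with 5 min. In fresh frozen liver it was 1 of 52 (1.92%, against 10.4%). After peaks were joined at gaps of up to 500 bp, the shares were 47.8%, 17.7%, 57.1%, 34.6% and 52.4% in the FiTAc-seq lists and 3.23% in fresh frozen liver, beside 15.8%, 21.5%, 15.6%, 14.3% and 15.7% of the whole FiTAc-seq lists and 15.1% of the whole fresh frozen list. With the highest 10% of each list in place of 5000 peaks, they were 27.1%, 8%, 22.7%, 28% and 29.6% in the FiTAc-seq lists and 1.92% in fresh frozen liver. The fresh frozen peaks of the windows were not weak as a group, since their median rank was 34.3% of the way down the list. The median width of the window peaks was 569, 291, 435, 967.5 and 720 bp in the FiTAc-seq lists and 441.5 bp in fresh frozen liver. The fresh frozen median was close to that at 65 °C with 40 min, but the widest window peaks of these lists were 1522 and 7508 bp. The part of width in these shares was not tested.

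**Figure D4:**
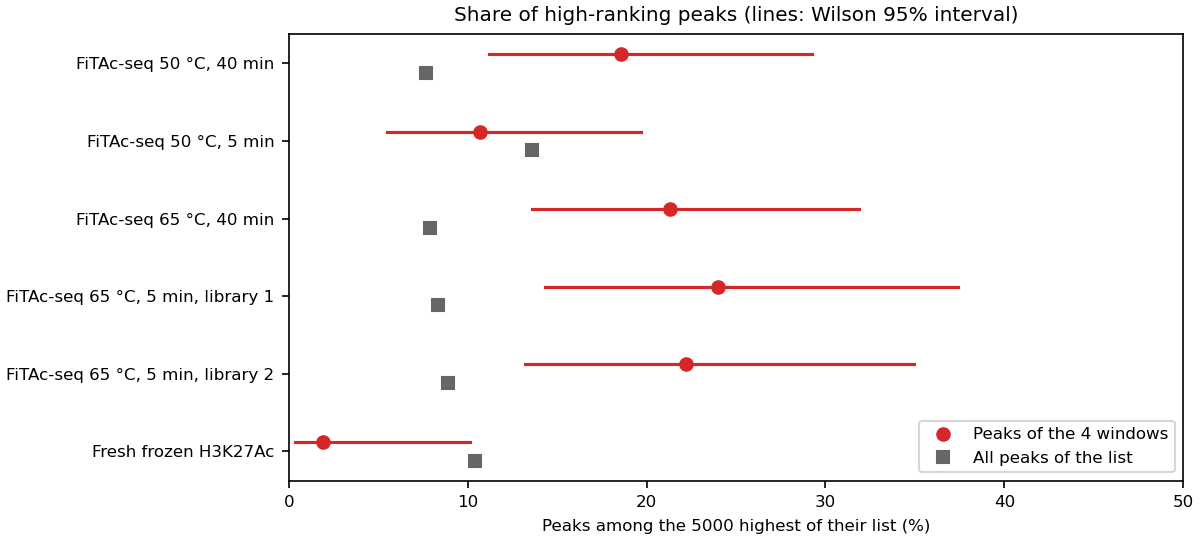
Percent of window peaks among the 5000 highest of their list (red, with the Wilson 95% interval) and the same percent over the whole list (grey squares), for the 6 long H3K27Ac lists. The red point lies at 18.6% to 24% in 4 FiTAc-seq lists, above their grey squares, and below the grey square in fresh frozen liver. At 50 °C with 5 min it also lies below, but the interval includes the square. Neighbouring peaks are not independent, so the intervals cover counting error only.

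Most fresh frozen peaks of the windows were found again in 5 FiTAc-seq lists, although at 50 °C with 5 min this depended on the weaker peaks. Of the 52, an overlap of at least 1 bp was found for 50 at 50 °C with 40 min (96.2%, Wilson 95% interval 87% to 98.9%), against 73.2% of all 48239 fresh frozen peaks. It was found for 34 at 50 °C with 5 min (65.4%, interval 51.8% to 76.9%), against 43.7% of all. When both lists were cut at a −log10 q-value of 5, that list met 21 of 49 (42.9%, against 38% of all). An overlap was found for 47 at 65 °C with 40 min (90.4%, interval 79.4% to 95.8%), against 72.0%. Both libraries at 65 °C with 5 min met 50 of the 52 (96.2%, interval 87% to 98.9%), against 73.0% and 70.2% of all. The list at 80 °C met 0 of 52 (interval up to 6.88%), against 0.112% of all. FiT-seq H3K27Ac also met 0, against 0.0829%, and FiT-seq H3K4me2 met 4 (7.69%), against 16.0%. All 5 long FiTAc-seq lists met 34 of the 52 (65.4%, against 41.1% of all). Those 34 peaks had a median width of 456 bp and a median rank of 14971, while 17 peaks met by some of the lists had a median width of 321 bp and a median rank of 25968.

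Except at 50 °C with 5 min, high recovery in the windows extended to the weakest fresh frozen peaks. Of the 13 window peaks that had a rank number above 30000 in fresh frozen liver, 13 were met at 50 °C with 40 min, 6 at 50 °C with 5 min, 12 at 65 °C with 40 min, and 13 and 12 at 65 °C with 5 min. Of all fresh frozen peaks of such rank, 52.1%, 21.8%, 49.9%, 53.1% and 48.9% were met. For ranks above 5000 and up to 15000 the lists met 20, 16, 20, 21 and 21 of 21 window peaks, against 94.0%, 67.4%, 93.8%, 93.2% and 91.5% of all, so the gap was small there. The FiTAc-seq lists cover far more of the windows than of the chromosomes, as given above, and the part of this in the recovery was not tested. A single FiTAc-seq peak often met several fresh frozen peaks. This held for 14 of 70 window peaks at 50 °C with 40 min (20%, against 6.57% of the list), 0 of 75 at 50 °C with 5 min (against 5.2%), and 13 of 75 at 65 °C with 40 min (17.3%, against 6.65%). At 65 °C with 5 min it held for 18 of 50 (36%, against 12.3%) and 16 of 54 (29.6%, against 11.9%). In library 2, the Apoe window peak chr7:20278934-20288677, of 9744 bp, met 4 fresh frozen peaks.

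**Figure D5:**
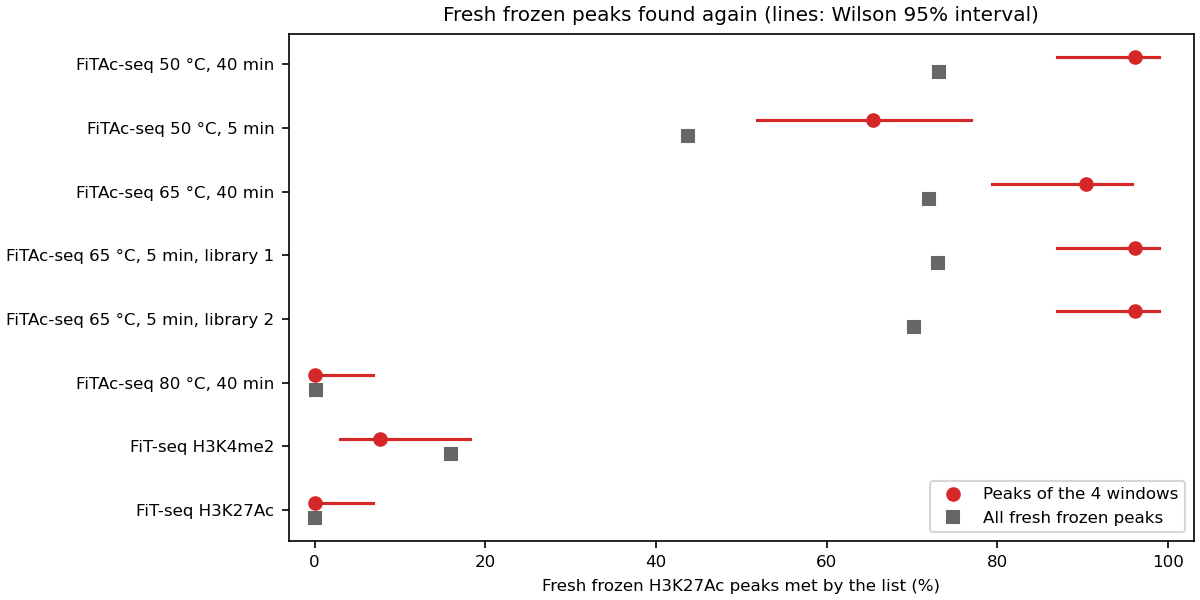
Percent of the 52 fresh frozen window peaks met by each FFPE list (red, with the Wilson 95% interval) and the same percent over all fresh frozen peaks (grey squares). Red points lie at 90.4% to 96.2% for 4 FiTAc-seq lists and at 65.4% for 50 °C with 5 min, each above its grey square, while the list at 80 °C and FiT-seq H3K27Ac met 0 and FiT-seq H3K4me2 lies below its square. The intervals cover counting error only.

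By window, the 22 fresh frozen peaks of the Apoa1 cluster, 17 of the Apoe cluster, 4 of Apob and 9 of Apoa2 were met by different numbers of lists. In the Apoa1 window 11 of 22 were met by all 5 long FiTAc-seq lists and 10 by 4 of them, and each of these 10 lacked an overlap at 50 °C with 5 min. In the Apoe window 15 of 17 were met by all 5, and in the Apoa2 window 6 of 9. The 1 fresh frozen peak met by none of the 5 lists (1.92% of 52, against 16.6% of all) lay in the Apob window at chr12:7965034-7965558. It was 525 bp wide, had a −log10 q-value of 14.1 and ranked 16973 of 48239 in its list. It was also the 1 window site with a fresh frozen peak and none in the 5 long FiTAc-seq lists, against 11.0% of all sites. In the opposite direction, 1 window site had a peak in both 65 °C 5 min libraries and none in fresh frozen liver, against 9.65% of all sites. It lay in the Apoa2 window at chr1:173166724-173168505 and was present in all 5 FiTAc-seq lists. It ranked at 88.8% of the list at 50 °C with 40 min, 35.5% at 50 °C with 5 min, 73.7% at 65 °C with 40 min, and 38.4% and 32.8% at 65 °C with 5 min, counted from the highest peak, and the fresh frozen Apob peak at 35.2%.

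The share of FFPE window peaks that met a fresh frozen peak was near that of the whole lists. A fresh frozen peak was met by 33 of 70 window peaks at 50 °C with 40 min (47.1%, against 49.4% of the list), 41 of 75 at 50 °C with 5 min (54.7%, against 55.7%), and 30 of 75 at 65 °C with 40 min (40%, against 49.6%). At 65 °C with 5 min it was met by 24 of 50 (48%, against 44.3%) and 28 of 54 (51.9%, against 46.4%). With peaks joined at gaps of up to 500 bp, the shares were higher, at 78.3%, 70.6%, 76.2%, 65.4% and 81%, against 66.8%, 65%, 66.5%, 60.8% and 63.5% of the whole lists. In bases, the stretches under a peak in all 6 lists summed to 12245 bp in 42 segments, or 4.71% of the windows and 48.1% of the fresh frozen coverage there. Over the chromosomes, such stretches made up 0.304% of the length and 38.3% of the fresh frozen coverage. The share of fresh frozen coverage inside the common stretches was 30.9% in the Apoa1 window, 72.8% in the Apoe window, 46.4% in the Apob window and 52.6% in the Apoa2 window. The Apoe cluster was thus the window with the largest such share. The common stretches can lie only within the peaks of the sparse list at 50 °C with 5 min. That list, from 1 library, covered 7.86% of the Apoa1 window and 21.1% of the Apoe window.

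The libraries at 65 °C with 5 min are the only pair that shows spread between libraries. They covered 33.5 ± 0.483% of the windows (SD, n = 2), and the labels do not say whether they came from separate animals or sections. Of the bases covered in either library, 81.6% were covered in both, against 63.7% over the chromosomes. The libraries covered 1.72% and 1.56% of the chromosomes. Their median peak width was 967.5 and 720 bp in the windows and 355 and 353 bp in the whole lists. The part of coverage and width in these shares was not tested. By window, the share of bases covered in both libraries was 85.4% for the Apoa1 cluster, 83.5% for the Apoe cluster, 84.2% for Apob and 69% for Apoa2. The Apoa2 window also had the widest spread of coverage, 50.4 ± 2.61% (SD, n = 2). With 1 library in every other condition, differences between conditions were set against this SD and were not tested.

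The lists of 40 min and 5 min of sonication differed more at 50 °C than at 65 °C over all windows. The contrast at 50 °C rests on 1 library each, so that sonication time, library and depth cannot be told apart. At 50 °C, 40 min covered 29.2% of the windows and 5 min 10.9%, a difference of 18.3 percentage points. At 65 °C, 40 min covered 31.3% and 5 min 33.5 ± 0.483% (SD, n = 2), a difference of -2.24 points. The difference at 50 °C was largest in the Apoa1 window, at 31.5 points, followed by 19.9 points for Apoe, 17.5 for Apoa2 and 4.08 for Apob. At 65 °C it was -10.6 points for Apoa2 (pair SD 2.61), -5.16 for Apoe (pair SD 0.541), 0.169 for the Apoa1 cluster (pair SD 1.58) and 1.02 for Apob (pair SD 0.491). The Apoe and Apoa2 differences at 65 °C, both negative, exceeded the SD of the pair, and so did the positive Apob difference. The Apoa1 difference at 65 °C lay within the SD of the pair, and its sign changed with the library, at 1.29 points against library 2 alone and -0.951 points against library 1 alone. Over the chromosomes the differences of 40 min over 5 min were 0.744 points at 50 °C and -0.294 points at 65 °C, so both kept the sign of the windows.

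Between homogenization temperatures, the lists differed more at 5 min than at 40 min, and the contrast at 5 min rests on the same single library at 50 °C. At 5 min, 65 °C covered 33.5 ± 0.483% of the windows (SD, n = 2) and 50 °C covered 10.9%, a difference of 22.6 points. At 40 min, the windows were covered to 29.2% at 50 °C, 31.3% at 65 °C and 0% at 80 °C, and 65 °C exceeded 50 °C by 2.03 points. That last difference was 3.95 points in the Apoa1 window, 0.814 in the Apoe window, 1.39 in the Apob window and 1.47 in the Apoa2 window, the last within the pair SD of 2.61. FFPE liver at 65 °C with 5 min exceeded fresh frozen liver by 23.7 points over all windows, and by 36.8 points of its own length in the Apoe window, 33.9 in the Apoa2 window, 29 in the Apoa1 window and 3.13 in the Apob window. Over the chromosomes the difference between FFPE liver at 65 °C with 5 min and fresh frozen liver was 0.843 points. Read depth is unknown, so the covered lengths compare peak lists and not acetylation as such.

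The short FiT-seq H3K4me2 list had few peaks in the windows, though more per length than over the chromosomes, at 1.92 and 0.456 peaks per 100 kb. The 5 peaks of the FiT-seq H3K4me2 list lay in the Apoe window (2) and the Apoa1 window (3), and the Apob and Apoa2 windows had none. The highest, chr7:20249876-20250113, had a −log10 q-value of 15.8 and ranked 190 of 11746, at a site where the H3K27Ac ranks were 6436, 3164, 2626, 1918 and 3812 in the FiTAc-seq lists and 6775 in fresh frozen liver. The other Apoe window peak, chr7:20300329-20300700, had a −log10 q-value of 7.45 and ranked 2503. The Apoa1 window peaks stood together at chr9:46090561-46092220 with −log10 q-values of 3.5 or less, near the end of the list. Among the 5000 highest H3K4me2 peaks were 2 of the 5 (40%, against 42.6% of the list). Of the 5, an H3K27Ac peak met 4 at 50 °C with 40 min, 3 at 50 °C with 5 min, 3 at 65 °C with 40 min, 4 in each library at 65 °C with 5 min, and 4 in fresh frozen liver. Over all H3K4me2 peaks the shares were 69.3%, 48.4%, 68.2%, 76.3% and 73.1% in the FiTAc-seq lists and 70.0% in fresh frozen liver, and 5 peaks are too few to set against them. The list at 80 °C and FiT-seq H3K27Ac met 0 of the 5, against 0.111% and 0.894% of all.

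Few H3K27Ac sites of the windows held an H3K4me2 peak. Of the 24 sites 3 had an H3K4me2 peak (12.5%, against 20.1% of all sites), and they were chr9:46090561-46092220, chr7:20249625-20252721 and chr7:20299622-20301843. Sites were joined from the peaks of all lists, so all sites can include some with an H3K4me2 peak alone. The 20.1% is therefore not a share of H3K27Ac sites. An H3K4me2 peak was met by 3 of 70 window peaks at 50 °C with 40 min (against 11.8% of the list), 3 of 75 at 50 °C with 5 min (against 14.7%) and 3 of 75 at 65 °C with 40 min (against 11.9%). It was met by 3 of 50 and 3 of 54 at 65 °C with 5 min (against 13.0% and 13.5%) and by 4 of 52 in fresh frozen liver (against 16.0%). FiT-seq H3K4me2 and FiT-seq H3K27Ac covered 0.484% and 0% of the windows, a difference of 0.484 points, which was 0.235 points after peaks under a −log10 q-value of 5 were left out. The H3K4me2 list is short, so a site without a peak in it may still carry the mark.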

How the data were processed

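Of 10 samples, 9 had a peak list, and the FFPE input was not analysed here. Reads were aligned with BWA to mm9 and peaks called with MACS2, per the submitters' processing notes. Their versions, thresholds and use of a control are not given in the sources used here. Each library was prepared with 1 of 2 kits, and the labels do not assign them. The authors deposited 1 list per library, without pooling. The deposited value per peak was read as the −log10 of a q-value, because long lists stop close to 2 and neighbouring values are spaced in steps.

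From the lists, peaks overlapping the 4 windows by at least 1 bp were taken, with starts given 1-based (Python 3.11.15, pandas 2.3.3, numpy 2.4.6). Lists were compared by overlap, covered length and rank within a list, with Wilson 95% intervals for shares (scipy 1.17.1), which cover counting error only. Backgrounds apply the same rule to the whole list, and covered shares of the chromosomes use a span of 2570 Mb between the first and last peak. The overlap code was tested on simulated data. The text names the sites in all 6 long H3K27Ac lists, fresh frozen sites in no FiTAc-seq list, sites shared by the 65 °C 5 min libraries where fresh frozen liver had no peak, and the widest and highest peaks. Groups came from sample titles. Members and lists were chosen with earlier results of these data known. No test was run, since only 1 condition had 2 libraries. Planned lists of other lipoprotein genes and of cell-type markers were not run, because mm9 gene positions were not used here, so the tissue label was not checked against markers. Read depth is unknown. Alternatives were a −log10 q-value of at least 5, joined peaks, an overlap of 50% of the shorter peak, shortened windows and each 65 °C 5 min library alone.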

Additional observations from a re-analysis of the deposited data

Results flagged for a closer look

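The difference between 40 and 5 min of sonication had opposite signs at 50 °C and 65 °C over all windows and in some single windows. The difference between temperatures was not tested, since 65 °C with 5 min alone had 2 libraries. For 40 min minus 5 min, covered length was 18.35 points at 50 °C and -2.243 points at 65 °C over all windows, 19.93 and -5.156 points in the Apoe window, and 17.51 and -10.57 points in the Apoa2 window. It had the same sign at both temperatures in the Apoa1 window (31.5 and 0.169 points) and in the Apob window (4.08 and 1.02 points). For the share of fresh frozen peaks met, the difference was 30.77 points at 50 °C and -5.769 points at 65 °C over all windows, 50.0 and -4.545 points in the Apoa1 window, and 22.22 and -16.67 points in the Apoa2 window. Over all fresh frozen peaks, 73.2% were met with 40 min and 43.7% with 5 min at 50 °C. At 65 °C, 72.0% were met with 40 min and 73.0% and 70.2% with 5 min, so the sign there changed with the library. The window differences at 65 °C rest on few peaks. Over all windows, 47 of 52 were met with 40 min and 50 with 5 min, and in the Apoa1 window 21 and 22 of 22. The Apoa2 window has 9 fresh frozen peaks, so its difference of -16.67 points rests on 1 or 2 peaks.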

How the results depend on the processing

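Differences in covered length between H3K27Ac conditions kept their sign under the alternatives run, except in the Apoa1 and Apob windows for 40 min minus 5 min at 65 °C. The Apoa1 value was -0.704 points with shortened windows and -0.951 to 1.29 points with 1 library left out. With only peaks of −log10 q of at least 5, the Apob value was -0.161 points, and the cause was not tested. The same filter gave covered shares of 28.67% (50 °C, 40 min), 7.877% (50 °C, 5 min), 30.31% (65 °C, 40 min) and 32.79% (65 °C, 5 min), differences of 20.79 (40 minus 5 min at 50 °C), 24.91 (65 °C minus 50 °C at 5 min) and 23.23 points (65 °C 5 min minus fresh frozen), fresh frozen peaks met of 42.86% (50 °C, 5 min) and 94.9% (65 °C, 5 min), and 55.64% of 65 °C 5 min peaks meeting fresh frozen ones. The filter left 2 H3K4me2 peaks, took the H3K4me2 coverage of the Apoa1 window to 0% and that of all windows to 0.235%. H3K4me2 peaks met were 100% in the 5 long FiTAc-seq lists and in fresh frozen liver, as 2 of 2 with this filter and 3 of 3 with joined peaks, against 37.8% to 72.9% and 51.3% to 77.8% of all. Joining peaks gave covered shares of 32.5%, 14.23%, 34.26%, 35.41% and, in fresh frozen liver, 12.2%, differences of -1.152 (40 minus 5 min at 65 °C), 21.18 and 23.21 points, fresh frozen peaks met of 77.42% (50 °C, 5 min) and 95.16% (65 °C, 5 min), window peaks meeting fresh frozen ones of 78.26%, 70.59%, 76.19% and 73.17%, and shares among the 5000 highest of 47.83% (50 °C, 40 min), 57.14% (65 °C, 40 min) and 52.38% (65 °C, 5 min, library 2). An overlap of 50% of the shorter peak gave 95.19% of fresh frozen peaks met at 65 °C with 5 min. Shortening the windows by 5000 bp at both ends gave 97.78% for the same share, covered shares of 32.25%, 12.39%, 34.33% and 36.35%, and differences of 19.86, 23.95 and 26.45 points. With either 65 °C 5 min library alone, covered length was 33.18% to 33.86%, and the differences were -2.584 to -1.901 (40 minus 5 min at 65 °C), 22.28 to 22.96 (65 °C minus 50 °C at 5 min) and 23.38 to 24.06 points (over fresh frozen liver). No paired analysis was possible because the groups share fewer than 2 replicate numbers. Depth is unknown, and the list at 80 °C and FiT-seq H3K27Ac are too short to show a difference in the windows.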
